A study of Mus musculus with 9 samples.

Results

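Autophagy delivers cell contents to the lysosome inside a double membrane. The results below concern 45 genes of this process, counted by RNA-seq in 3 sorted populations of leukaemic mouse bone marrow: the autophagy machinery, mitophagy receptors, and transcription factors of the TFE and FOXO families. They were taken by symbol from a list of 45 names, and each name matched 1 of the 24391 gene rows of the count table. The mice were C57BL/6, 6 to 8 weeks old, and carried leukaemia of the AML1-ETO9a model, in which a shortened form of the AML1-ETO fusion protein drives the disease. All cells came from bone marrow and were sorted by CD43, a leukocyte sialoglycoprotein, and c-Kit, the receptor for stem cell factor, into CD43++ckit+, CD43+ckit- and CD43-ckit- populations with 3 libraries each, called DP (both present), SP (CD43 alone) and DN (neither) from here on. Healthy marrow was not analysed here, so every group shares the leukaemia and every comparison is between parts of the leukaemic marrow. The route by which the fusion gene was introduced, or any pooling of animals, is not given in the sources used here. The labels do not tie the 3 libraries of a population to different mice, and the p-values then cover only the spread among these samples, which may be technical.

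In autophagy the ULK1 kinase complex starts the process, a class III phosphatidylinositol 3-kinase complex around VPS34 and beclin 1 marks the site, and ATG9 and ATG2 supply lipid to the growing membrane. Linked conjugation reactions attach LC3 and GABARAP proteins, the ATG8 family, to that membrane, where cargo receptors such as p62 dock. Red cell precursors remove their mitochondria by mitophagy, for which the receptor NIX, encoded by Bnip3l, is known. TFEB and TFE3 switch on lysosome and autophagy genes when mTORC1 is quiet, and FOXO factors do so when AKT signalling is low.

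Total counts per library ran from 17966197 to 31781746, with the DN libraries the shallowest. Values below are counts per 1e+06 reads (CPM) scaled by TMM, a method that sets library sizes so that most genes do not differ. Every log2 fold change is the later population minus the earlier one in the order DP, SP, DN. Genes were tested by the quasi-likelihood method of edgeR, with p-values adjusted by Benjamini-Hochberg over all 12573 genes that passed the filter on low counts, and a gene is called at an adjusted p under 0.05. Kit, the gene of c-Kit, stood at 146 to 176 CPM in DP, 7.80 to 21.0 CPM in SP and 18.9 to 42.1 CPM in DN. Spn, the gene of CD43, stood at 432 to 555, 137 to 232 and 71.7 to 180.1 CPM in that order. From SP to DN the libraries of both genes overlapped. Spn was not called there (-0.45, edgeR adjusted p = 0.269), and Kit was called higher in DN (1.11, edgeR adjusted p = 0.0379). The RNA of these 2 genes thus separates DP from the others, but not SP from DN in the way of the sort. The labels name no cell type beyond bone marrow cell. Summed over 10 erythroid marker genes, the libraries held 1935 to 2783 CPM in DP, 17289 to 20625 in SP and 32904 to 53395 in DN. None of the 10 was at 0 in any library. All 10 were called higher in SP than in DP, where 20.1% of all tested genes were. From SP to DN only 2 of the 10 were called higher, where 20.9% of all tested genes were, and the median log2 fold change of the 10 was 0.33. Summed over 12 neutrophil genes, the values were 407, 110 and 6891 CPM in DP, 566, 3860.0 and 3055 in SP, and 4567, 17731 and 18399 in DN. Library 3 of DP thus stood above the other 2, and library 1 of SP and of DN below the other 2. In DN, library 1 also held the highest sum of 8 B-lineage genes, at 249 CPM against 91.0 and 111. The sums over 10 macrophage genes reached at most 407 CPM, those over 8 B-lineage genes 249 CPM and those over 8 T and NK cell genes 37.9 CPM, each at its highest in a DN library. From DP to DN 2 macrophage, 8 B-lineage and 5 T and NK cell genes were called higher, where 27.7% of all tested genes were. From SP to DN the numbers were 8, 6 and 1, where 20.9% of all tested genes were higher. None was called lower in these comparisons. Of the macrophage and B-lineage genes none was at 0 in any library, and of the T and NK cell genes 6 were at 0 in library 2 of DP and 1 in library 1 of DN. Sums over 7 mast cell and basophil genes were 742 to 1398 CPM in DP, 458 to 534 in SP and 1100.0 to 1400.3 in DN, and none was at 0. These genes did not move together. From DP to DN the means of Ms4a2 (294 to 35.5 CPM) and Hdc (546 to 168 CPM) fell, and that of Gata2 rose (251 to 985 CPM). These 3 were called and the other 4 were not, where 67.4% of all tested genes were called. Sums over 6 megakaryocyte genes were 7.58 to 11.9 CPM in DP, 34.9 to 42.7 in SP and 44.6 to 68.1 in DN. From SP to DN the mean of Itga2b rose from 19.3 to 41.2 CPM and that of Gp9 fell from 9.85 to 2.51 CPM, both called. Pf4 and Vwf were not called in that step. Ppbp or Gp1bb was at 0 in each DP library, and Ppbp also in libraries 1 and 2 of SP. The part these markers have in the results below was not tested. In bulk samples fewer cells of a type and less RNA per cell cannot be told apart.

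Most of the 45 genes were lowest in DP, intermediate in SP and highest in DN. All 45 passed the filter on low counts. DN had 32 of them higher than DP and 5 lower, and 8 did not pass the test. Over all tested genes 27.7% were higher in DN and 39.7% lower, together 67.4%. SP had 25 of the 45 higher than DP, 3 lower and 17 not called, where 20.1% of all tested genes were higher in SP and 19.7% lower, together 39.8%. Between SP and DN, 28 were higher in DN, 4 were lower and 13 were not called, against 20.9% higher and 31.0% lower over all tested genes, together 51.9%. The 3 comparisons share their libraries and are not independent of each other. The change was at least 2-fold upward in 29 of the 45 between DP and DN, where 21.5% of all tested genes rose that far, and at least 2-fold downward in 2, where 25.8% did.

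**Figure D1:**
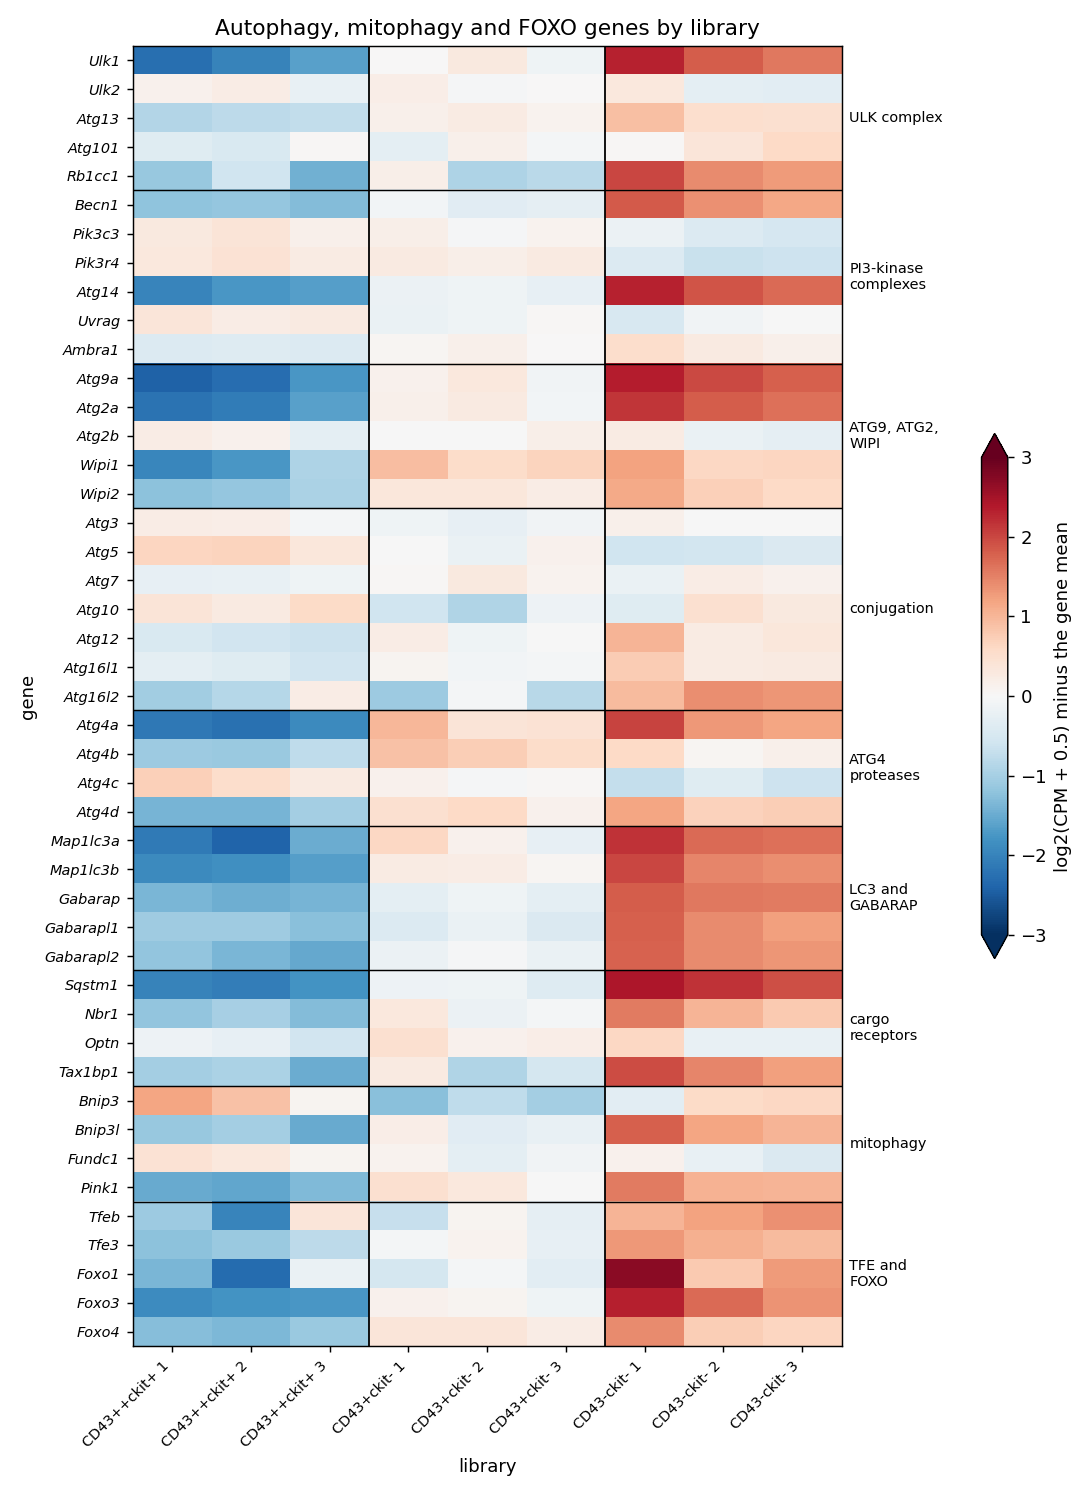
Heat map of the 45 genes (rows, by role) in the 9 libraries (columns), as log2(CPM + 0.5) minus the mean of each gene over the libraries, so that red is above and blue below that mean. Most rows pass from blue in the 3 DP libraries to red in the 3 DN libraries, while rows such as Ulk2, Atg2b and Atg3 stay pale.

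The median log2 difference between DP and DN was 2.15 over the 45 genes and -0.19 over all tested genes. Against DP, SP had medians of 0.97 and -0.01, and between SP and DN they were 0.95 and -0.13. These values depend on the scaling, since the 10 most abundant genes took 12.2% to 14.1% of the counts in DN and 4.29% to 5.65% in the other 2 populations. Scaling by library totals lowered the log2 fold change per gene by a median of 0.26, 0.91 and 0.64 in the order SP against DP, DN against DP, DN against SP, and DESeq2-style size factors raised it by 0.04, 0.24 and 0.20. Relative to the median of all genes, the median of the 45 was 0.98, 2.34 and 1.08 above it with TMM, 0.98, 2.32 and 1.06 with library totals, and 0.98, 2.34 and 1.08 with DESeq2-style size factors. By calls, library totals gave 23 of the 45 higher in SP than in DP and 9 lower, 25 higher and 12 lower in DN than in DP, and 19 higher and 13 lower in DN than in SP. Of all tested genes 13.8% were higher and 27.9% lower, then 13.3% and 61.4%, then 9.47% and 54.6%, in that order. Over all genes the same scaling moved the share of calls that were higher in the earlier population of each pair. It went from 49.4% to 67.0%, from 58.9% to 82.2% and from 59.7% to 85.2%. Between SP and DN the DESeq2-style size factors moved it to 45.8%.

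**Figure D2:**
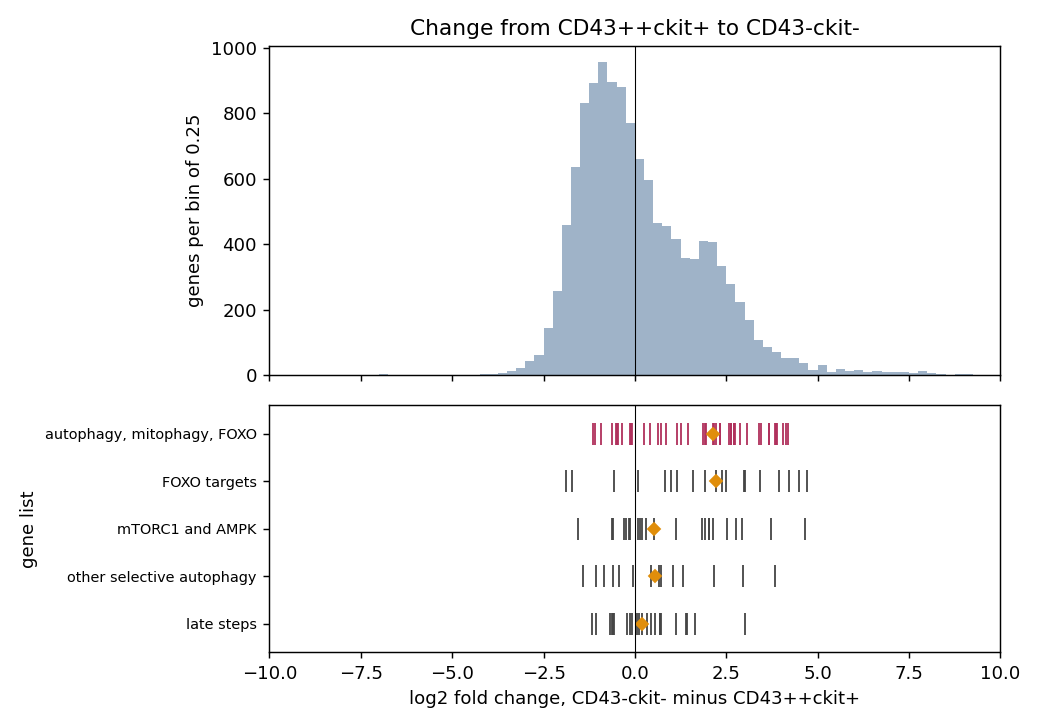
Top, histogram of the log2 fold change from DP to DN of all 12573 tested genes in bins of 0.25; bottom, each tested gene of the 45 and of 4 other pathway lists as a tick, with the median of each list as a diamond. The median of the 45 genes lies at 2.15 and that of all genes at -0.19.

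In the joint test of the 3 populations 38 of the 45 were called, where 74.8% of all tested genes were. The means of 30 of these 38 (78.9%) rose in the order DP, SP, DN, and 26.3% of all jointly called genes had that order. With library totals 9 of the 30 left that order (Ambra1, Atg101, Atg12, Atg13, Atg16l1, Atg4d, Foxo4, Wipi1 and Wipi2), and 1 each did without library 2 of DP (Tfeb), without library 1 of DN (Wipi1) and without the 3 libraries that correlated least within their populations (Rb1cc1). The opposite order held for 5 (Atg4c, Atg5, Pik3c3, Pik3r4 and Uvrag). Atg4b was highest in SP, and Atg16l2 and Bnip3 were lowest there. The 3 libraries of DP did not overlap those of DN for 37 of the 45, where 73.2% of all tested genes did not overlap. The counts of genes without overlap were 35 for DP against SP (55.5% of all genes) and 34 for SP against DN (64.3%).

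As a share of all counts, which is scaling by library totals, the 45 genes held 0.326% to 0.374% in DP, 0.670% to 0.733% in SP and 1.12% to 1.31% in DN. These ranges did not overlap. Within DN, library 1 had the highest CPM for 36 of the 45, where it had the highest of the 3 for 43.6% of all tested genes, and with library totals for 29 of the 45 and 22.4% of all. In a fit without the 3 least correlated libraries (library 3 of DP, library 1 of SP and of DN), 33 were higher and 8 lower in DN than in DP. Of all tested genes this fit called 35.4% higher and 46.4% lower. The same fit gave 32 higher and 8 lower in SP than in DP, and 31 higher and 8 lower in DN than in SP. The shares of all tested genes were 33% higher and 34.6% lower, and 32.8% higher and 37.4% lower, in that order.

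**Figure D3:**
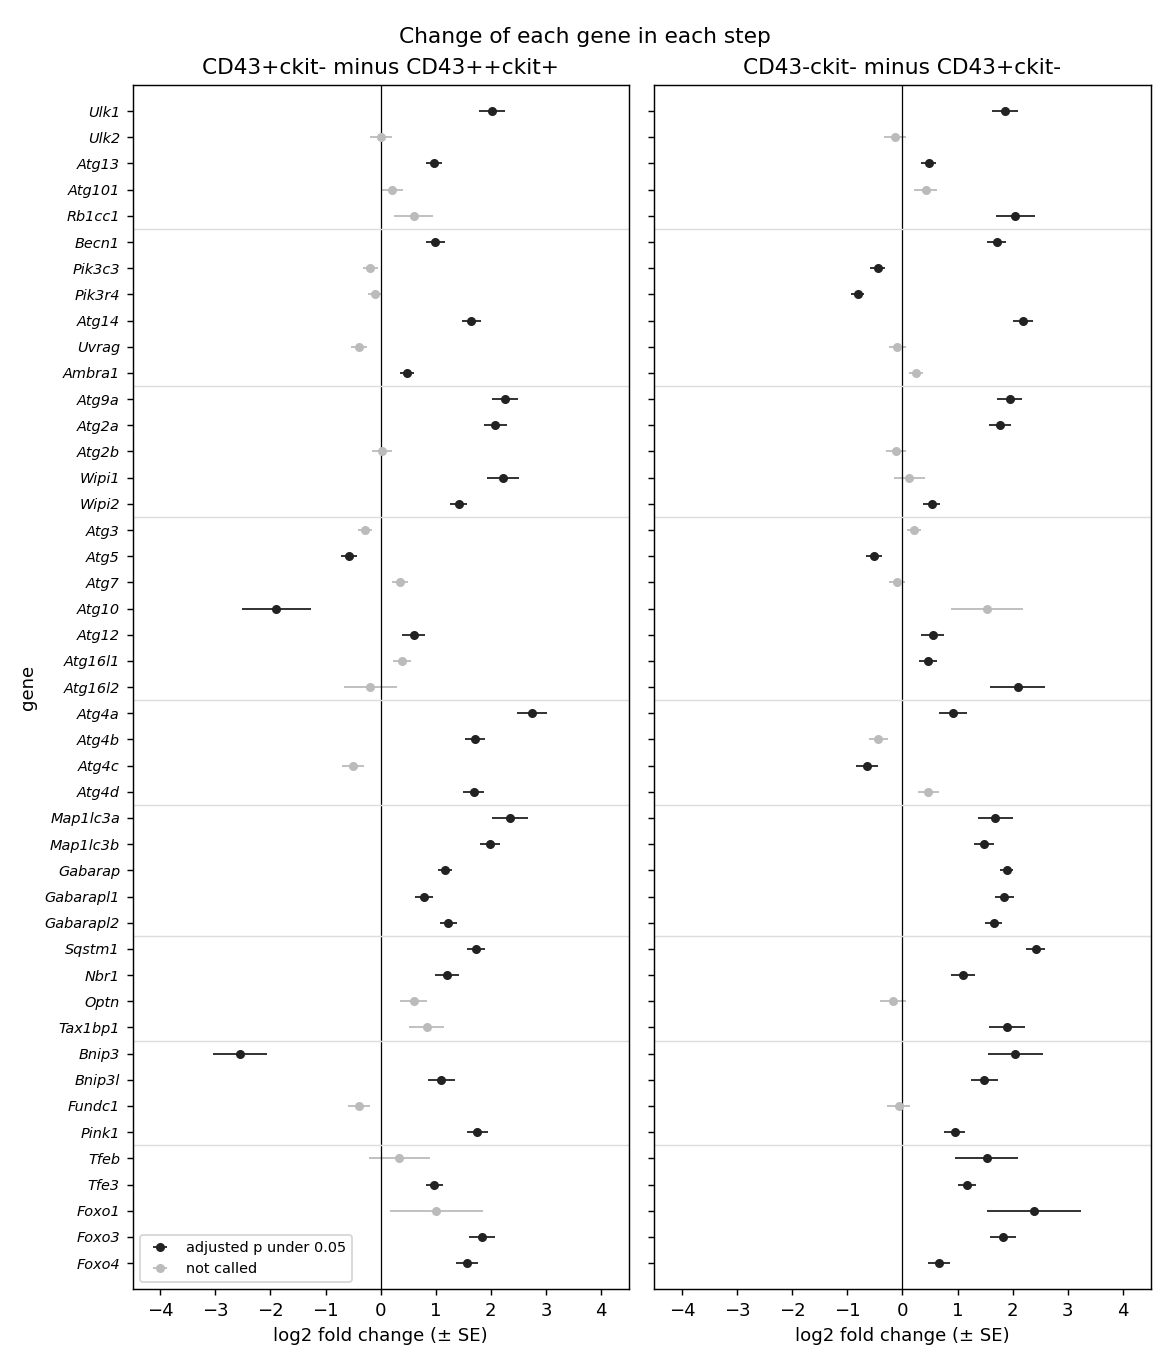
Log2 fold change of each of the 45 genes (points, with bars of 1 SE from the edgeR fit) from DP to SP on the left and from SP to DN on the right. Black points were called and grey points were not; Ulk1, Atg9a, Atg2a and Sqstm1 lie far to the right in both panels, and Atg5 is the 1 gene that is black and left of 0 in both.

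Upstream sequence is shown for 4 of these genes, chosen after their values and motifs were seen: Ulk1 and Sqstm1 as strong risers, Gabarapl1 as the ATG8 family member with a FOXO core motif, and Atg5 as a gene that fell and holds an E-box. Each run is the 250 bases before the RefSeq start on build GRCm38.p6, read 5′ to 3′ on the gene's strand, with matched motifs in capitals. Ulk1 lies on the minus strand at chr5:110810082-110810331, Sqstm1 on the minus strand at chr11:50210821-50211070, Gabarapl1 on the plus strand at chr6:129532942-129533191 and Atg5 on the plus strand at chr10:44268089-44268338.
Ulk1: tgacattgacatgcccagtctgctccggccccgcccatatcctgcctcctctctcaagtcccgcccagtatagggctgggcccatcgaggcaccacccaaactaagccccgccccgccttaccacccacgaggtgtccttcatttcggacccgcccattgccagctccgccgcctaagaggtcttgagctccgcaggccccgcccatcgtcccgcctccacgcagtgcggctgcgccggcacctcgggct
Sqstm1: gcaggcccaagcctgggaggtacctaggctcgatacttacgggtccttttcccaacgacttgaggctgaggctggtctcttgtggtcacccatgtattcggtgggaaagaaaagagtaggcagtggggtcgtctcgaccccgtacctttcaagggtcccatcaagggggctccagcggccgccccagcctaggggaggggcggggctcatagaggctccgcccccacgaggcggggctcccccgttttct
Gabarapl1: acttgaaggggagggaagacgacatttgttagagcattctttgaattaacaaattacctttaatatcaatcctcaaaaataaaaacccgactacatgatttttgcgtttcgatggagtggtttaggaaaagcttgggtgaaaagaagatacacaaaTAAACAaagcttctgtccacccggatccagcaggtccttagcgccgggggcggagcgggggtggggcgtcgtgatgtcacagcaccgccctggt
Atg5: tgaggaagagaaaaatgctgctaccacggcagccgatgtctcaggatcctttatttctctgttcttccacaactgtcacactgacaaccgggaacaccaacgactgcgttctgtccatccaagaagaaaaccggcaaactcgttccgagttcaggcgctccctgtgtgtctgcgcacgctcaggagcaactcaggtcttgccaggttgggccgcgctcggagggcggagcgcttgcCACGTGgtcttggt

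The search covered both strands for CACGTG, the palindromic E-box that TFEB and TFE3 bind, for TGTTTAC, a FOXO motif, and for its core TGTTTA, which overlaps it wholly. RefSeq promoters matched 37 of the 45 symbols. Rb1cc1, Becn1, Pik3c3, Atg12, Atg16l1, Map1lc3a, Bnip3l and Foxo4 had no match and were not searched. All of these but Pik3c3 were called higher in DN than in DP. CACGTG occurred in 4 of the 37 (10.8%: Atg3, Atg5, Atg7 and Bnip3) and in 6.86% of all 27025 genes with such a window. In the main fit none of these 4 was among the genes called higher in DN than in DP: Atg5 was lower, and the log2 differences of Atg3, Atg7 and Bnip3 were -0.08, 0.26 and -0.51 without a call. Other scalings called Atg7 higher or lower, as given below. TGTTTAC occurred in 0 of the 37 and in 3.54% of all genes, and TGTTTA in 3 of the 37 (8.11%: Ambra1, Atg4a and Gabarapl1) and in 13.5% of all genes. In Atg5 the CACGTG begins 14 bases before the start, and in Gabarapl1 the reverse complement TAAACA begins 94 bases before it. The median GC content was 59.6% in the members' windows and 52.4% in all. A match is a description of these letters, and their absence says only that they are not in this window.

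Among the 5 genes of the ULK complex, which receives nutrient signals, Ulk1 itself rose most and its paralogue Ulk2 was not called. Ulk1 stood at 97.9, 117 and 152 CPM in the 3 DP libraries, 477, 574 and 429.9 CPM in SP and 2326, 1668 and 1399 CPM in DN. Each population lay wholly above the one before it. The mean of Ulk1 was 14.7 times as high in DN as in DP (log2 fold change 3.88 ± 0.26 SE, adjusted p = 4.46e-06), with 2.01 between the DP and SP means and 1.87 between the other 2. Atg13, the adaptor that links ULK1 to the rest of the complex, stood at 38.7, 41.6 and 43.0 CPM in the 3 DP libraries, 79.3, 85.0 and 76.8 CPM in SP and 135, 102 and 99.3 CPM in DN. Its 3 populations did not overlap either. Atg13 rose by 0.97 ± 0.14 SE, adjusted p = 0.000961 from DP to SP. From SP to DN it rose by 0.48 ± 0.14 SE, adjusted p = 0.0184, a direction that turned with library totals (-0.19), and the call was lost without library 1 or 3 of SP (adjusted p = 0.0592 and 0.0748) and with no low-count filter (0.0679). Rb1cc1, which encodes the scaffold FIP200, was higher in DN than in either other population (2.64 and 2.05, adjusted p = 0.00025 and 0.00176). The stabilising subunit Atg101 was higher in DN than in DP, at 0.62 ± 0.21 SE, adjusted p = 0.024, which turned to -0.28 with library totals. Leaving out library 1 or 2 of DP or library 2 or 3 of DN ended that call (adjusted p from 0.0600 to 0.0948), as did using no low-count filter (0.0671). From SP to DN the difference of Atg101 was 0.42 (adjusted p = 0.113), and it was called with same-numbered SP and DN libraries as blocks (0.47, adjusted p = 0.0172), with DESeq2-style size factors (0.0436), with DESeq2 (0.0236) and without the 3 least correlated libraries (0.00925). From DP to SP that last fit called it too (0.49, adjusted p = 0.00428). Ulk2 stood at 41.8, 44.8 and 32.7 CPM in the 3 DP libraries, 44.0, 37.0 and 38.6 CPM in SP and 47.5, 31.0 and 30.4 CPM in DN. The libraries of its 3 populations overlapped throughout, and its log2 differences were 0.00, -0.13 and -0.14 (adjusted p = 0.992, 0.564 and 0.579). With library totals Ulk2 was called lower in DN than in DP (-1.07) and than in SP (-0.81), and likewise without the 3 least correlated libraries (-0.50 and -0.31).

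Within the class III PI3-kinase complexes the regulatory subunits that direct the enzyme to autophagy rose, and the catalytic core fell. Atg14, which targets the complex to autophagy sites, stood at 10.7, 12.7 and 13.6 CPM in the 3 DP libraries, 38.7, 40.0 and 37.1 CPM in SP and 220.2, 164 and 143 CPM in DN. No library of one population reached into another. Its rise from DP to DN was 14.2-fold (log2 3.83 ± 0.19 SE, adjusted p = 1.48e-06), divided into 1.65 and 2.19 at SP. Becn1, the gene of beclin 1, stood at 89.6, 93.7 and 85.0 CPM in the 3 DP libraries, 197, 165 and 171 CPM in SP and 745, 536 and 463 CPM in DN. Here too the populations were fully separate, with rises of 0.99 to SP and 1.71 from there to DN (adjusted p = 0.00252 and 0.000163). In the GENCODE M21 annotation 43.9% of the exonic bases of Becn1 are overlapped by Cntd1 on the other strand, which stood at means of 0.592, 1.46 and 6.08 CPM, and the handling of strand in the counting is not stated. Pik3c3, the gene of the catalytic subunit VPS34, was lower in DN than in DP (-0.64 ± 0.14 SE, adjusted p = 0.00257) and than in SP (-0.45 ± 0.14 SE, adjusted p = 0.0213). The second of these calls was lost with DESeq2-style size factors, with DESeq2 and with a strict low-count filter (adjusted p = 0.115, 0.0833 and 0.0645). It was also lost in a fit of only these 2 populations (0.0558) and without library 1 or 3 of SP or library 2 or 3 of DN (adjusted p from 0.0572 to 0.0663). Pik3r4, which encodes the kinase-like partner VPS15, fell likewise, by 0.92 on the log2 scale from DP to DN (adjusted p = 0.000208) and by 0.81 from SP (adjusted p = 0.000858). Uvrag, which replaces ATG14 in the endosomal form of the complex, was lower in DN than in DP (-0.49 ± 0.15 SE, adjusted p = 0.019). This call was lost with DESeq2-style size factors, DESeq2, the strict filter and a fit of only the 2 populations (adjusted p from 0.0772 to 0.196), and without library 1 of DP (0.0580). Ambra1, a scaffold that joins beclin 1 to ULK1, was higher in DN than in DP (0.73 ± 0.12 SE, adjusted p = 0.000717), but at -0.20 with library totals. From DP to SP Ambra1 rose by 0.48 ± 0.12 SE, adjusted p = 0.0128, a call lost with library totals (0.113) and without library 1 or 2 of DP (0.0523 and 0.0502).

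Genes that supply lipid to the growing membrane held Atg9a, with the largest rise of the 45 from DP to DN, and Atg2b, which was not called. Atg9a, the membrane protein of the vesicles that seed the process, stood at 68.0, 74.9 and 109 CPM in the 3 DP libraries, 399.8, 459 and 344 CPM in SP and 1899.8, 1448 and 1277 CPM in DN. The populations were separate, and the change from DP to DN was 18.4-fold (log2 4.20 ± 0.25 SE, adjusted p = 2.61e-06). Of the 50-base words of Atg9a transcripts 30.2% also occur in other genes, and 32.6% of its exonic bases are overlapped by Gm29253 on the same strand or Ankzf1 on the other, the second of which had means of 17.4, 34.9 and 49.1 CPM. Atg2a, a lipid transfer protein, stood at 70.8, 77.4 and 106 CPM in the 3 DP libraries, 365, 399.6 and 309.9 CPM in SP and 1466, 1170.0 and 1032 CPM in DN. It rose by 2.08 ± 0.20 SE, adjusted p = 0.000326 to SP and by 1.77 ± 0.20 SE, adjusted p = 0.000236 from there to DN. Its paralogue Atg2b stood at 107, 100.2 and 74.2 CPM in the 3 DP libraries, 91.0, 91.3 and 104 CPM in SP and 108, 78.9 and 75.6 CPM in DN. These libraries overlapped in every comparison, at log2 differences of 0.02, -0.10 and -0.12 (adjusted p = 0.937, 0.646 and 0.588). With library totals Atg2b was called lower in DN than in the other 2 (-1.02 and -0.79), and without the least correlated libraries it was called lower too (-0.42 and -0.34). Wipi1 and Wipi2 encode propeller proteins that read phosphatidylinositol 3-phosphate. Wipi1 stood at 16.5, 19.3 and 34.3 CPM in the 3 DP libraries, 126, 96.7 and 104 CPM in SP and 151, 102 and 102 CPM in DN. All of its change lay between DP and the other 2 populations, which overlapped (2.22 ± 0.29 SE, adjusted p = 0.000689, and 0.12 with adjusted p = 0.72 from SP to DN). Wipi2 stood at 97.1, 103 and 119 CPM in the 3 DP libraries, 292, 291 and 269 CPM in SP and 503, 378 and 348 CPM in DN. It rose by 1.42 ± 0.16 SE, adjusted p = 0.000428 to SP. Its further rise to DN was 0.53 ± 0.16 SE, adjusted p = 0.0202, which turned to -0.14 with library totals, and whose call was lost without library 1 or 3 of SP (adjusted p = 0.0519 and 0.0782) and with no low-count filter (0.0624).

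**Figure D4:**
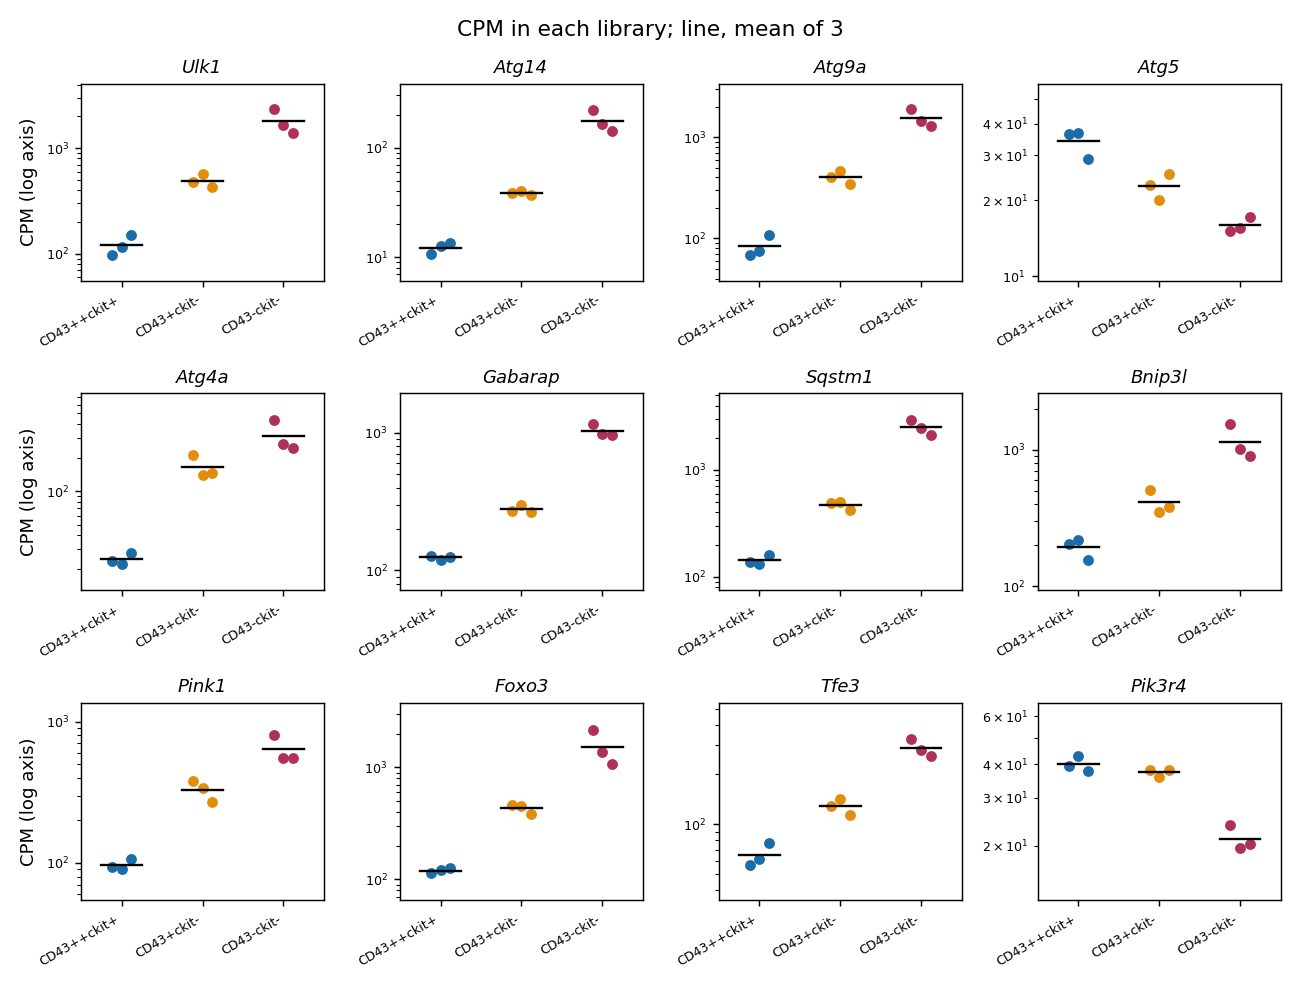
CPM of 12 of the 45 genes in each library on log axes, with 1 point per library and a line at the mean of 3. Ulk1, Atg14, Atg9a and Sqstm1 step up from population to population without overlap, whereas Atg5 steps down and Pik3r4 is lower in DN alone.

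Of the 7 genes of the conjugation reactions, 3 were higher and 1 lower in DN than in DP, with a median difference of 0.26. Over all tested genes 27.7% were higher and 39.7% lower, with a median of -0.19. Atg5, whose product is joined to ATG12, was the only member called lower in each of the 3 comparisons. It stood at 36.5, 36.7 and 29.2 CPM in the 3 DP libraries, 23.0, 20.1 and 25.4 CPM in SP and 15.1, 15.6 and 17.1 CPM in DN. The populations did not overlap, and the differences were -1.10 ± 0.15 SE, adjusted p = 0.000222 from DP to DN, -0.58 (adjusted p = 0.0125) to SP and -0.52 (adjusted p = 0.0174) from there. The difference between DP and SP was not called without library 1 or 2 of DP (adjusted p = 0.0561 and 0.0602). Between SP and DN the call of Atg5 was lost without library 3 of SP or library 2 of DN (0.0629 and 0.0532), with DESeq2-style size factors (0.0883) and with DESeq2 (0.0781). Atg12, the ubiquitin-like partner of ATG5, went the other way and stood at 33.4, 31.2 and 29.6 CPM in the 3 DP libraries, 54.1, 42.6 and 45.9 CPM in SP and 94.3, 55.2 and 58.8 CPM in DN. It rose by 1.14 ± 0.21 SE, adjusted p = 0.00105 from DP to DN, which library totals left uncalled (0.20, adjusted p = 0.244). The 2 steps of Atg12 were close to the threshold (0.60 with adjusted p = 0.0438, then 0.55 with adjusted p = 0.0492), and the second turned to -0.14 with library totals. The first was not called without any one of the 6 libraries compared (adjusted p from 0.0548 to 0.130), nor the second without any library but 2 and 3 of DN (0.0515 to 0.135). Atg16l1, which brings the ATG12-ATG5 pair to the membrane, was higher in DN than in DP (0.86 ± 0.16 SE, adjusted p = 0.00136) but at -0.07 with library totals. Against SP it was higher by 0.47 ± 0.16 SE, adjusted p = 0.0368, which became -0.20 with library totals and lost its call without any one of 5 libraries (library 1 or 2 of DP, 1 or 3 of SP, 1 of DN; adjusted p from 0.0573 to 0.114) and with no low-count filter (0.106).

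Atg16l2, its paralogue, ranged from 1.18 to 3.53 CPM in DP, 1.14 to 2.82 CPM in SP and 6.21 to 8.70 CPM in DN. Its rise to DN was 1.91 ± 0.49 SE, adjusted p = 0.00731 against DP and 2.09 ± 0.50 SE, adjusted p = 0.0075 against SP. The highest DP value was that of library 3, which had the high neutrophil sum of 6891 CPM, and without it the first difference was 2.55. With library totals that difference was 0.98 and not called (adjusted p = 0.128). Atg10, the E2-like enzyme of the ATG12 reaction, was near the limit of detection at 0.766 to 1.07, 0.0671 to 0.449 and 0.314 to 0.982 CPM. It was lower in SP than in DP (-1.89 ± 0.62 SE, adjusted p = 0.0382), a call lost without library 1 or 2 of DP, 1 or 2 of SP or 2 or 3 of DN (adjusted p from 0.0547 to 0.102), and also in a fit of only these 2 populations (0.0503). Atg10 was at -2.71 without library 3 of SP. From SP to DN its difference was 1.53 (adjusted p = 0.0757), which the replicate block called (1.63, adjusted p = 0.00761). Atg3 and Atg7, the E2-like and E1-like enzymes of the LC3 reaction, were not called in any comparison with TMM scaling and the main filter. Between DP and DN they differed by -0.08 and 0.26 (adjusted p = 0.586 and 0.132). Their calls depended on the scaling. From DP to DN Atg7 was called higher with DESeq2-style size factors, DESeq2 and the strict filter (0.50, 0.50 and 0.44), without library 1 of DN (0.37) and without the 3 least correlated libraries (0.41), but lower with library totals (-0.64), as was Atg3 (-0.99). From SP to DN Atg3 was called higher with DESeq2-style size factors, DESeq2 and the strict filter (0.41, 0.41 and 0.37) but lower with library totals (-0.44), as was Atg7 (-0.72). From DP to SP Atg3 was called lower with library totals (-0.55), without library 3 of DP (-0.38) and without the 3 least correlated libraries (-0.39), and Atg7 higher with DESeq2 (0.40), without library 1 of DN (0.35) and without those 3 (0.45).

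Of the 4 ATG4 proteases, which trim LC3 and GABARAP before they are attached and free them afterwards, 3 rose and Atg4c fell. From DP to DN 27.7% of all tested genes were called higher and 39.7% lower. Atg4a stood at 23.6, 22.3 and 28.0 CPM in the 3 DP libraries, 213, 139 and 145 CPM in SP and 435, 263 and 243 CPM in DN. Most of its change came between DP and SP (6.72-fold, log2 2.75 ± 0.27 SE, adjusted p = 0.000326). The further rise to DN was 0.92 ± 0.25 SE, adjusted p = 0.0141 and was not called under library totals (0.24, adjusted p = 0.305) and without library 3 of SP (0.0604). Of the 50-base words of Atg4a, 51.2% also occur in the pseudogene Atg4a-ps, so its counts are uncertain. Atg4d stood at 38.0, 38.5 and 49.7 CPM in the 3 DP libraries, 141, 154 and 111 CPM in SP and 230.4, 164 and 168 CPM in DN. It was separate between DP and both others, rising by 1.69 ± 0.19 SE, adjusted p = 0.000444 to SP and by 2.16 ± 0.20 SE, adjusted p = 2.62e-05 to DN. Kri1 overlaps 19.3% of the exonic bases of Atg4d on the other strand, and its means fell from 40.7 to 30.1 and 22.3 CPM over the same populations. With same-numbered libraries of SP and DN as blocks, Atg4d was also called between those 2 (0.52, adjusted p = 0.00666), where the fit without blocks gave 0.47 (adjusted p = 0.0607). Atg4b was highest in SP, at means of 68.0 ± 9.71, 222 ± 24.1 and 164 ± 34.9 CPM (SD, n = 3). It rose by 1.71 ± 0.18 SE, adjusted p = 0.00039 to SP. Its difference from there to DN was -0.44 (adjusted p = 0.0627), which was called with the same blocks (-0.39, adjusted p = 0.0486), with library totals (-1.10) and without library 3 of DP or library 1 of DN (adjusted p = 0.0445 and 0.00893). The difference of Atg4b between DP and DN was 1.27 ± 0.18 SE, adjusted p = 0.000264 and was not called under library totals (0.32, adjusted p = 0.0779). Atg4c had means of 7.79 ± 0.464 CPM in SP and 4.97 ± 0.708 CPM in DN. It was lower in DN than in DP (-1.15 ± 0.20 SE, adjusted p = 0.000897) and than in SP (-0.65 ± 0.20 SE, adjusted p = 0.0239). The second call was lost without any one library of SP or without library 3 of DN (adjusted p from 0.0568 to 0.0619), and also with DESeq2-style size factors (0.0898), DESeq2 (0.0761) and a fit of only the 2 populations (0.0566).

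All 5 ATG8 family genes rose in each of the 3 comparisons, and no other role group did so as a whole. Of all tested genes 7.44% were called higher both from DP to SP and from SP to DN. Their differences between DP and DN ran from 2.63 to 4.04, each more than 2-fold. Gabarap stood at 127, 119.9 and 125 CPM in the 3 DP libraries, 269, 301 and 268 CPM in SP and 1153, 982 and 970.0 CPM in DN. The DP values were close to each other, and no library of a later population came near them. Gabarap rose by 1.17 ± 0.12 SE, adjusted p = 0.000359 to SP and by 1.89 ± 0.12 SE, adjusted p = 2.72e-05 from there to DN, 8.35-fold in all. Gabarapl2 stood at 42.4, 37.4 and 33.0 CPM in the 3 DP libraries, 85.6, 94.7 and 84.2 CPM in SP and 330.2, 260.4 and 242 CPM in DN. Its populations were separate too, at 2.88 ± 0.16 SE, adjusted p = 2.06e-06 between DP and DN. Gabarapl1, a known FOXO target whose upstream sequence is printed above, rose less to SP (0.78, adjusted p = 0.00485) than from there to DN (1.85, adjusted p = 7.58e-05); the difference between these changes was not tested. On the other strand 1700101I11Rik overlaps 28.3% of its exonic bases and had means of 0.232, 1.31 and 1.66 CPM. Map1lc3b, the LC3 gene most used as an autophagy marker, had means of 77.9 ± 7.61, 308 ± 21.4 and 856 ± 208 CPM (SD, n = 3), a rise of 11-fold (log2 3.46 ± 0.19 SE, adjusted p = 2.06e-06). Map1lc3a, the other LC3 gene, had means of 2.60 ± 1.03, 13.3 ± 4.19 and 43.0 ± 8.80 CPM. It rose by 4.04 ± 0.35 SE, adjusted p = 2.07e-05.

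Among the 4 cargo receptors, which tie ubiquitin-marked cargo to LC3, Sqstm1, Nbr1 and Tax1bp1 were higher in DN than in DP, and Optn was not called. Sqstm1, the gene of p62, stood at 138, 130.1 and 158 CPM in the 3 DP libraries, 493, 504 and 419 CPM in SP and 2963, 2464 and 2115 CPM in DN. The DN libraries lay far above all others. The change was 17.7-fold between DP and DN (log2 4.15 ± 0.18 SE, adjusted p = 1.4e-06), with 1.73 to SP and 2.41 from there. Mrnip overlaps 17.3% of the exonic bases of Sqstm1 on the other strand. Nbr1, a receptor related to p62, stood at 64.1, 73.7 and 59.2 CPM in the 3 DP libraries, 184, 130.1 and 142 CPM in SP and 432, 296 and 252 CPM in DN. It rose by 1.21 ± 0.22 SE, adjusted p = 0.00264 and then by 1.11 ± 0.22 SE, adjusted p = 0.0031, without overlap between populations. Tax1bp1, which also serves in ferritin turnover, rose mainly between SP and DN (1.89 ± 0.32 SE, adjusted p = 0.00148). Its difference between DP and SP was 0.83 (adjusted p = 0.0612). It passed the test without library 2 of SP (1.01, adjusted p = 0.0286), with DESeq2 (0.0126), DESeq2-style size factors (0.0437), a strict low-count filter (0.0318) and blocks over all 9 libraries (0.0230). Optn, the gene of optineurin, had means of 239.7 ± 35.1, 362 ± 47.4 and 322 ± 117 CPM. Its 3 differences were 0.60, 0.42 and -0.17 (adjusted p = 0.0779, 0.139 and 0.555), and the first was called without library 1 of DN (0.00876) and under 7 of the other settings (adjusted p from 0.00618 to 0.0486). The second was called with DESeq2, DESeq2-style size factors and the strict filter (0.66, 0.66 and 0.61) but turned to -0.53, also called, with library totals, and to -0.03 without the least correlated libraries. The third was called without library 1 of DN (-0.52, adjusted p = 0.0256), with library totals (-0.86) and in the fit that left out the least correlated libraries (-0.41).

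Of the 4 mitophagy genes, Pink1 and Bnip3l rose, Bnip3 was lowest in SP, and Fundc1 was not called. Pink1 encodes the kinase that marks damaged mitochondria, and stood at 94.0, 91.1 and 107 CPM in the 3 DP libraries, 378, 339 and 270.1 CPM in SP and 805, 554 and 549 CPM in DN. It rose by 1.76 ± 0.19 SE, adjusted p = 0.000407 to SP and by 0.95 ± 0.19 SE, adjusted p = 0.00331 from there, with no overlap, and library totals ended the second call (0.28, adjusted p = 0.111). Bnip3l, the gene of NIX, stood at 202, 219 and 156 CPM in the 3 DP libraries, 509, 349 and 379 CPM in SP and 1544, 1013 and 895 CPM in DN. Its populations were separate and rose by 1.10 ± 0.24 SE, adjusted p = 0.00654 and then by 1.48 ± 0.24 SE, adjusted p = 0.00131, 5.99-fold in all. Over the same populations the sum of the 10 erythroid markers rose from 1935 to 2783 CPM, through 17289 to 20625, to 32904 to 53395 CPM. From SP to DN, Slc4a1 (means 9274 and 21462 CPM) and Alas2 (2082 and 9121 CPM) changed most in CPM, and Hemgn was lower without a call (311 and 237 CPM). In that step 2 of the 10 were called, where 51.9% of all tested genes were. The part of these markers in the change of Bnip3l was not tested. A share of 20.8% of the 50-base words of Bnip3l also occurs in the pseudogene Bnip3l-ps. Bnip3, the hypoxia-induced relative of NIX, stood at 4.04, 3.15 and 1.61 CPM in the 3 DP libraries, 0.336, 0.671 and 0.481 CPM in SP and 1.10, 2.49 and 2.58 CPM in DN. These are low values, with the 3 SP libraries below all others. Bnip3 fell by 2.55 on the log2 scale to SP (adjusted p = 0.00362) and was higher again in DN (2.05 ± 0.50 SE, adjusted p = 0.00835), and DP and DN overlapped (-0.51, adjusted p = 0.343). Of its 50-base words 16.6% occur in other genes and 22.3% of its exonic bases are overlapped. Fundc1, an outer-membrane receptor of hypoxia-induced mitophagy, had means of 11.9 ± 1.48, 9.07 ± 1.31 and 8.67 ± 1.78 CPM (SD, n = 3), and its difference between DP and DN was -0.46 (adjusted p = 0.0776). That difference was called without library 3 of DP or library 1 of DN (adjusted p = 0.0472 and 0.0240), with no low-count filter (0.0497), with library totals (-1.39) and in the fit that left out the least correlated libraries (-0.72).

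All 5 transcription factor genes were higher in DN than in either other population, and 3 of them, Tfe3, Foxo3 and Foxo4, also rose from DP to SP. Of all tested genes 27.7% were higher in DN than in DP and 20.9% higher in DN than in SP. From DP to SP 20.1% of them rose. Foxo3 stood at 113, 122 and 126 CPM in the 3 DP libraries, 459.5, 448 and 385 CPM in SP and 2147, 1376 and 1070.4 CPM in DN. Its populations were widely apart, with library 1 of DN the highest. Foxo3 rose by 1.84 ± 0.24 SE, adjusted p = 0.000639 and then by 1.83 ± 0.24 SE, adjusted p = 0.000415, 12.7-fold between the outer populations. Tfe3 stood at 57.0, 61.5 and 77.3 CPM in the 3 DP libraries, 129, 143 and 113 CPM in SP and 328, 282 and 257 CPM in DN. It rose by 0.98 ± 0.16 SE, adjusted p = 0.00171 and 1.17 ± 0.16 SE, adjusted p = 0.000537, without overlap. Foxo4 had means of 52.8 ± 4.51, 156 ± 8.74 and 247 ± 78.3 CPM (SD, n = 3). It rose by 1.56 ± 0.20 SE, adjusted p = 0.000683 to SP, and its further difference of 0.66 ± 0.20 SE, adjusted p = 0.0215 turned to -0.02 with library totals and lost its call without library 1 or 3 of SP (adjusted p = 0.0510 and 0.0799).

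Foxo1 ranged from 0.109 to 2.10 CPM in DP, 1.58 to 2.38 CPM in SP and 4.65 to 19.2 CPM in DN. Library 3 of DP and library 1 of DN were the highest of their groups. Foxo1 was higher in DN than in DP (3.40 ± 0.90 SE, adjusted p = 0.0083), at 4.68 without the first of those libraries and 2.56 without the second. Against SP the difference was 2.39 ± 0.86 SE, adjusted p = 0.0429, and it was not called without library 1 of DP, any one library of SP, or library 1 or 3 of DN (adjusted p from 0.0559 to 0.171), under library totals (0.118), with all genes kept (0.0764) or with blocks over all 9 libraries (0.0796). Tfeb ranged from 1.59 to 10.2 CPM in DP, with library 3 again the highest, from 4.64 to 8.28 CPM in SP and from 16.2 to 21.0 CPM in DN. It was higher in DN than in DP (1.87 ± 0.57 SE, adjusted p = 0.0171), a call lost without library 1 of DP (adjusted p = 0.0627) and with library totals (0.202), and at 2.89 without library 3 of DP. Against SP it was 1.53 ± 0.57 SE, adjusted p = 0.0483, not called without library 1 of DP or any one library of the other 2 populations (adjusted p from 0.0561 to 0.145), under library totals (0.224) or with all genes kept (0.0875). Without library 3 of DP both Foxo1 and Tfeb were also called higher in SP than in DP (2.30 and 1.37, adjusted p = 0.0406 and 0.0147). That library held 6891 CPM over the 12 neutrophil genes against 407 and 110 in the other 2. Its sum over the 8 B-lineage genes was 25.9 CPM against 8.99 and 4.19. Library 1 of DN, the highest of its group for Foxo1, had the lowest neutrophil sum there (4567 CPM against 17731 and 18399). It had the highest B-lineage sum, at 249 CPM against 91.0 and 111. The part of either cell type in Foxo1 and Tfeb was not tested.

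Ratios of related genes within a library do not depend on its scaling, and 9 such pairs were compared. Only a change in a ratio is read here, since genes differ in length. An exact permutation test over the 9 libraries (1680 labelings, smallest possible p 0.00357) called 4 of the 9 pairs after Benjamini-Hochberg adjustment over the pairs. The log2 ratio of Ulk1 to Ulk2 was 1.23, 1.38 and 2.21 in DP, 3.44, 3.95 and 3.48 in SP and 5.61, 5.75 and 5.52 in DN. It rose by 4.02 ± 0.31 (SE, n = 3) between the outer populations, and its exact permutation p was the smallest possible (adjusted p = 0.0161). The log2 ratio of Atg2a to Atg2b was -0.59, -0.37 and 0.51 in DP and 3.76, 3.89 and 3.77 in DN, with the SP libraries between at a mean of 1.91 ± 0.29 (SD, n = 3). This ratio rose by 3.96 ± 0.34 (SE, n = 3), also at the smallest exact permutation p (adjusted p = 0.0161). In both pairs the 3 populations were separate and in the same order.

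Wipi1 to Wipi2 was highest in SP, with mean log2 ratios of -2.26 ± 0.41, -1.39 ± 0.19 and -1.80 ± 0.08 (SD, n = 3; exact permutation adjusted p = 0.0321). Bnip3l to Bnip3 was lower in DP than in the other 2 populations, at 6.11 ± 0.48, 9.68 ± 0.76 and 9.16 ± 1.09 (SD, n = 3; exact permutation adjusted p = 0.0402). For Gabarapl2 to Gabarap, Map1lc3b to Map1lc3a and Atg16l1 to Atg16l2 the exact permutation adjusted p was 0.161 each, and for Foxo3 to Foxo1 and Tfeb to Tfe3 it was 0.904 each. A pair of populations with 3 libraries each cannot go below an exact permutation p of 0.1. Without a single library 2 to 4 pairs were called; the number was 2 without library 1 or 3 of SP or library 2 or 3 of DN. Permutations within each replicate number give at least p 0.0278 (216 labelings), and 6 of the 9 pairs would have to reach it for any to be called, so the 0 calls of this exact test say nothing about the 4 pairs.

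**Figure D5:**
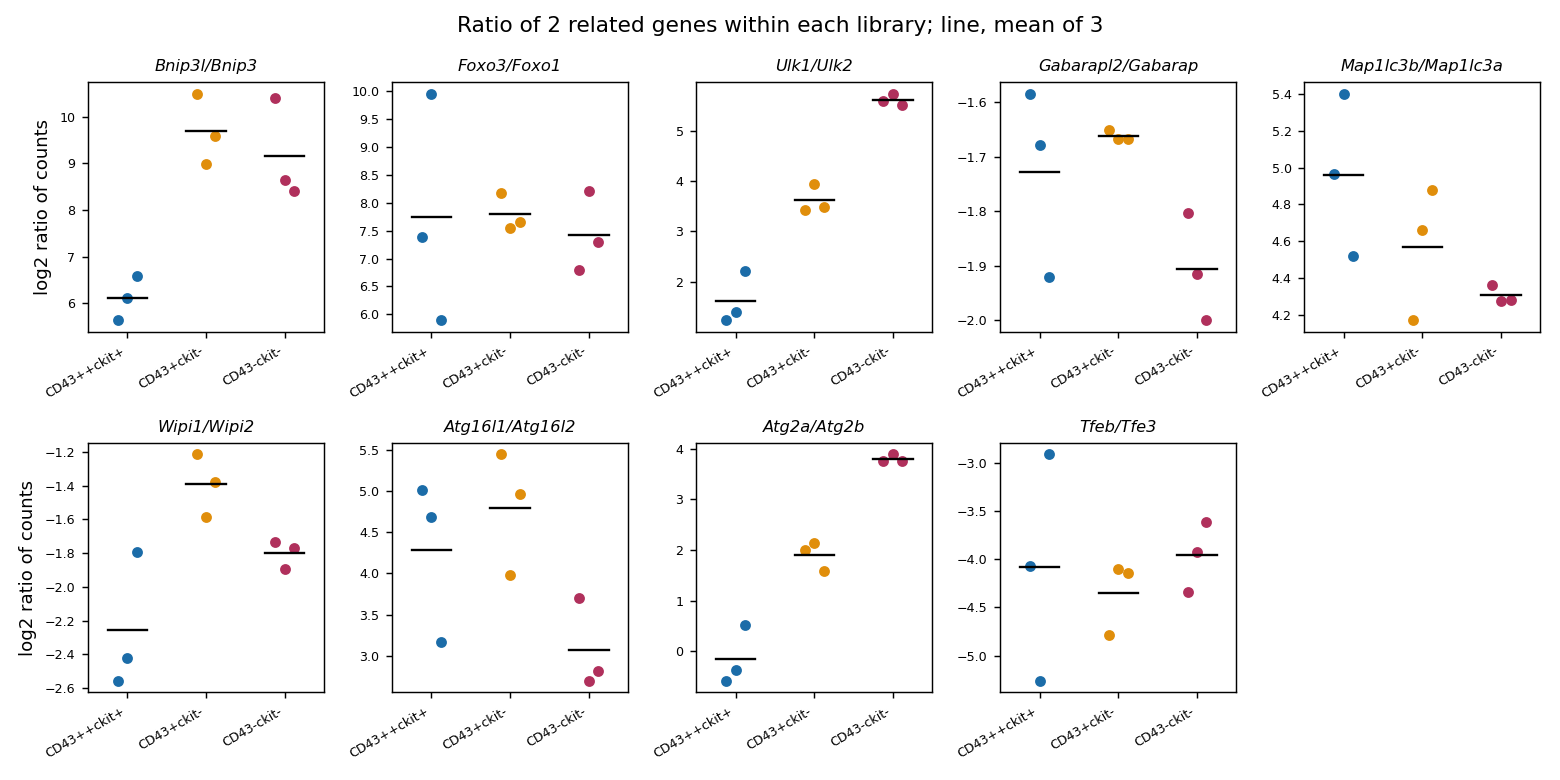
Log2 ratio of the counts (+ 0.5) of 2 related genes within each library, for 9 pairs, with 1 point per library and a line at the mean of 3. Ulk1/Ulk2 and Atg2a/Atg2b step up from population to population by about the same amount, while the points of Foxo3/Foxo1 and Tfeb/Tfe3 spread widely in DP.

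Other genes of the pathway came from 4 lists. Of 23 tested genes of mTORC1, AMPK and their regulators, 13 were higher in DN than in DP and 3 lower, beside 27.7% and 39.7% of all genes, with a median of 0.51 beside -0.19. Sesn2, a stress-induced inhibitor of mTORC1, rose from 27.8 ± 2.16 CPM in DP through 89.8 ± 13.0 to 696 ± 152 in DN (SD, n = 3; log2 4.65 ± 0.21 SE, adjusted p = 1.4e-06). Prkab1, a regulatory subunit of AMPK, rose by 3.71 ± 0.18 SE, adjusted p = 1.48e-06. Ddit4, the gene of REDD1, another inhibitor of mTORC1, rose by 2.94 ± 0.18 SE, adjusted p = 3.2e-06, almost all of it between SP and DN (2.77). Of 23 tested genes of later membrane and fusion steps, 10 were higher in DN than in DP and 6 lower, a total of 16 called where 67.4% of all genes were. From SP to DN 5 were higher and 9 lower, beside 20.9% and 31.0% of all genes. Wdr45, a relative of the WIPI genes, rose by 3.01 ± 0.17 SE, adjusted p = 2.22e-06. Vps11 and Vps16 encode subunits of the HOPS tethering complex and moved in opposite directions (1.43 and -1.05, adjusted p = 1.38e-05 and 0.0002).

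Of 14 tested genes of other selective autophagy, 7 were higher in DN than in DP and 5 lower, beside 27.7% and 39.7% of all genes. Calcoco1, a receptor for the endoplasmic reticulum, rose by 3.82 ± 0.22 SE, adjusted p = 2.39e-06. Ncoa4, the receptor that delivers ferritin to the lysosome, rose by 2.95 ± 0.24 SE, adjusted p = 1.39e-05, and Bcl2l13, a mitophagy receptor, by 1.32 ± 0.17 SE, adjusted p = 0.000185. Of 19 tested FOXO target genes, 13 were higher in DN than in DP and 2 lower, beside the same 27.7% and 39.7%, with a median of 2.23. Cdkn1b, the gene of the cell cycle inhibitor p27, stood at means of 84.5 ± 3.97, 278 ± 6.28 and 1575 ± 392 CPM (SD, n = 3; 4.22 ± 0.20 SE, adjusted p = 1.42e-06 between the outer populations). Trp53inp1, a p53-induced gene that also acts in autophagy, rose by 4.71 ± 0.26 SE, adjusted p = 1.9e-06 and Ccng2, a cyclin of cell cycle exit, by 3.96 ± 0.28 SE, adjusted p = 5.67e-06. From DP to SP 7 FOXO targets were higher and 4 lower, beside 20.1% and 19.7% of all genes. From SP to DN 10 were higher and 1 lower, beside 20.9% and 31.0%. With library totals 25 genes of the 4 lists together were higher in DN than in DP and 38 lower, in place of 43 and 16. That scaling called 13.3% of all tested genes higher and 61.4% lower.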

How the data were processed

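RNA was counted in 9 libraries, 3 from each of 3 sorted populations. Per the labels' protocols, total RNA was extracted with Trizol, made into TruSeq libraries and sequenced on an Illumina HiSeq instrument. The values are whole-number read counts per gene, deposited by the authors in 1 table of 24391 rows. The submitters' processing notes name CASAVA 1.8, TopHat2 2.0.4, RSEM, HTSeq and edgeR without saying which made the table, and the strand setting, annotation and build of the table were not stated there. The notes name a human build, whereas the rows carry mouse symbols, so no coordinates were taken from the counts.

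Genes were filtered with filterByExpr (minimum count 10, minimum total 15), scaled by TMM and fitted over all 9 libraries with the quasi-likelihood test of edgeR 4.0.16 in R 4.3.3, without a replicate block. Standard errors are the log2 fold change divided by the root of the F statistic. Depth per library is given with the results, and counting error is part of the fit. The script was tested on simulated data. Alternatives were other scalings, DESeq2 1.42.0, limma-voom (limma 3.58.1), other filters, fits of only the 2 populations compared, replicate blocks and left-out libraries. The members and lists were chosen with earlier results of these data known.

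Values in every library are given for the 2 genes of each role group with the smallest joint-test p and for both genes of each paralogue pair called, and 3 genes are named from each other list by the same p. Replicate numbers come from the labels. Each library's distance from its population mean, over the genes tested, was compared between libraries of one number. Pearson's r was 0.576, 0.409 and 0.368 for SP with DN, which were taken as paired. The main tests did not use this pairing, which enters only the alternatives with replicate blocks. For DP with SP r was 0.477, -0.654 and 0.360, and for DP with DN 0.299, -0.354 and 0.279, which were not paired. Between SP and DN libraries of different numbers, r was 0.440 for SP 3 with DN 2 and 0.406 for SP 2 with DN 3. It was -0.510 to -0.472 for the rest. Same-numbered libraries were thus not always the closest, and the pairing of SP with DN is an assumption. Shared 50-base words and overlapping exons were read from the GENCODE M21 annotation, and promoters from RefSeq. Protein sequences were not used here.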

Additional observations from a re-analysis of the deposited data

How the results depend on the processing

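Between DP and DN the number of the 45 genes called higher in DN was 30 to 33 without a single library. The share of all tested genes was 22.7% to 33.6% in these fits. The smaller counts in the other direction moved more, and the cause was not tested. Genes lower in SP than in DP numbered 9 with library totals, 5 with limma-voom, 1 with the replicate block in a fit of the 2 populations, 8 without the 3 libraries that correlated least within their populations (the outlying 3) and 1 to 5 without a single library. The shares of all tested genes lower in SP were 27.9%, 21.5%, 16.9%, 34.6% and 12.6% to 22.9% in the same order. Genes lower in DN than in DP numbered 12 with library totals and 8 without the outlying 3 libraries. Of all tested genes 61.4% and 46.4% were lower under these settings. Genes lower in DN than in SP numbered 1 with DESeq2-style size factors or DESeq2, 13 with library totals, 2 in a fit of only these populations, 8 without the outlying 3 libraries and 1 to 6 without a single library. The shares of all tested genes were 22.3% with DESeq2-style size factors and 24.4% with DESeq2. In the order of the other settings they were 54.6%, 27.2%, 37.4% and 23.9% to 32.9%. Over the other pathway lists, genes lower in SP than in DP numbered 3 with DESeq2-style size factors and 11 with library totals. Of all tested genes 18.2% and 27.9% were lower. With library totals 25 were higher and 38 lower in DN than in DP, and 18 higher and 38 lower than in SP, where DESeq2-style size factors gave 12 lower. Of all tested genes library totals called 13.3% higher and 61.4% lower than in DP, and 9.47% and 54.6% than in SP. DESeq2-style size factors called 22.3% lower in DN than in SP. Leaving out a library called 2 to 4 paralogue pairs. Permutations within replicate numbers, a replicate block, called 0, but cannot go below p 0.0278, so this exact test is void. With the replicate block between SP and DN, calls were gained for Atg10 (1.63), Atg101 (0.47), Atg4b (-0.39) and Atg4d (0.52) in the fit of these 2 populations. Most signs that turned belong to genes not called, and the cause was not tested. With library totals, though, called rises turned too: Atg101, Ambra1 and Atg16l1 from DP to DN, and Atg13, Wipi2, Atg12, Atg16l1 and Foxo4 from SP to DN. That scaling also called the turned differences of Atg7 and Optn from DP to DN and of Ambra1 and Atg3 from SP to DN. With DESeq2-style size factors the sign turned for Ulk2 0.11, Atg2b 0.14 and Atg3 0.16 from DP to DN, Ulk2 0.059, Uvrag 0.10, Atg2b 0.073, Atg7 0.10, Optn 0.020 and Fundc1 0.13 from SP to DN. With library totals the sign turned for Ulk2 -0.26, Atg101 -0.072 and Atg2b -0.23 from DP to SP, Atg101 -0.28, Ambra1 -0.20, Atg7 -0.64, Atg16l1 -0.070 and Optn -0.53 from DP to DN, Atg13 -0.19, Atg101 -0.20, Ambra1 -0.42, Wipi1 -0.55, Wipi2 -0.14, Atg3 -0.44, Atg12 -0.14, Atg16l1 -0.20, Atg4d -0.20 and Foxo4 -0.021 from SP to DN. With DESeq2 the sign turned for Ulk2 0.10, Atg2b 0.14 and Atg3 0.16 from DP to DN, Ulk2 0.058, Uvrag 0.11, Atg2b 0.072, Atg7 0.11, Optn 0.020 and Fundc1 0.13 from SP to DN. Without a low-count filter the sign turned for Ulk2 -0.0081 from DP to SP. With the strict filter the sign turned for Ulk2 0.054, Atg2b 0.092 and Atg3 0.11 from DP to DN, Ulk2 0.021, Uvrag 0.067, Atg2b 0.035, Atg7 0.067 and Fundc1 0.093 from SP to DN. In fits of only the 2 populations compared the sign turned for Ulk2 -0.012 from DP to SP, Atg2b 0.0043 and Atg3 0.021 from DP to DN. With the replicate block in such fits the sign turned for Ulk2 -0.0055 from DP to SP, Atg3 0.021 from DP to DN. Without the outlying 3 libraries the sign turned for Ulk2 -0.19, Rb1cc1 -0.021, Atg2b -0.083 and Atg16l2 0.71 from DP to SP, Atg10 0.11 and Optn -0.032 from DP to DN. With 5 added to counts the sign turned for paralogue ratio Foxo3/Foxo1 0.055 from DP to DN. Without a single library the sign turned for Tfeb from DP to SP -0.086 to 1.37, Ulk2 from DP to SP -0.12 to 0.094, Atg2b from DP to SP -0.12 to 0.13, Atg16l2 from DP to SP -0.72 to 0.47, Fundc1 from SP to DN -0.25 to 0.053, Atg7 from SP to DN -0.19 to 0.051, Uvrag from SP to DN -0.20 to 0.021, Wipi1 from SP to DN -0.10 to 0.22, paralogue ratio Foxo3/Foxo1 from DP to DN -1.24 to 0.79 and paralogue ratio Tfeb/Tfe3 from DP to DN -0.47 to 0.71.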
